A study of Mus musculus with 16 samples.

Results

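Collagen chains were followed in newborn XX mouse ovaries that lacked Foxl2, Runx1 or both. The members were 33 genes that encode collagen chains, taken as a family by what they encode, with no threshold on their values, and they were 33 of the 18193 genes with a value. Each gene was read from 1 probe set, the one with the highest mean level over the 16 arrays. Levels are given as the deposited intensity, a linear value, and differences on the scale log2(intensity + 16). The double knockout (DKO) ovaries were Runx1 -/f and Foxl2 -/- and carried an Sf1-cre transgene. The Foxl2 KO ovaries were Runx1 +/f and Foxl2 -/- with no transgene. The Runx1 KO ovaries were Runx1 -/f and Foxl2 +/+ with the transgene, and the control ovaries were Runx1 +/f and Foxl2 +/+ without it, so the controls too carried 1 floxed Runx1 allele. Each genotype had 4 replicates, each a single ovary, so the p-values below reflect the spread between ovaries. Sf1-cre acts in the somatic cells of the gonad, so other cells of the Runx1 KO and DKO ovaries kept a floxed Runx1 allele. Only those 2 groups held the transgene, so Runx1 loss and the transgene cannot be told apart.

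A collagen is a triple helix of chains, alike or different, and each kind of chain has its own gene. Fibrillar types form the cables of the interstitial matrix, type IV forms the sheet of basement membranes, type VIII assembles into short-chain networks, and fibril-associated types sit on the surface of fibrils. In the fetal ovary, germ cells and pre-granulosa cells, the supporting cells that express Foxl2 and Runx1, are enclosed in cords by a basement membrane, with stroma between the cords.

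Col8a1, the alpha 1 chain of type VIII collagen, was the only one of the 33 chains to change at the threshold used, and it fell in all 3 knockout groups. A gene is said to rise, fall or be called here at a limma p under 0.05 after Benjamini-Hochberg adjustment over all 18193 genes. That 1 of 33 stands beside 2.13% of all genes called in DKO minus control, 1.52% in Foxl2 KO minus control and 0.121% in Runx1 KO minus control. The brightest of its probe sets read 68.5, 59.2, 32.3 and 46.8 in the DKO ovaries and 62, 66, 50.9 and 45.3 in the Foxl2 KO ovaries. In the Runx1 KO ovaries it read 360, 97.8, 147 and 190, against 1374, 2318, 1907 and 2282 in the control ovaries. No knockout ovary reached the lowest control ovary, and the DKO and Foxl2 KO ovaries overlapped each other while lying below every Runx1 KO ovary. The mean intensity was 51.7 ± 15.7 in DKO, 56.1 ± 9.62 in Foxl2 KO, 199 ± 114 in Runx1 KO and 1970 ± 439 in control (SD, n = 4 each).

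Against control, the fall of Col8a1 was 29.4-fold for DKO (log2 -4.88 ± 0.29 SE, limma adjusted p = 2.75e-07), 27.2-fold for Foxl2 KO (log2 -4.76 ± 0.29, adjusted p = 3.96e-07) and 9.99-fold for Runx1 KO (log2 -3.32 ± 0.29, adjusted p = 0.000143). These folds are on the log2(intensity + 16) scale, which understates the change where a level is low. In each of these 3 comparisons Col8a1 had the most negative log2 difference of all genes, as rank 1 of the falls. The whole ovary was measured, so fewer cells of a type and less RNA in each cell cannot be told apart for this or any other gene.

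The 2 other probe sets of Col8a1 also read below control. The second probe set gave 71.2, 97.2, 46.5 and 58.4 in DKO, 69.4, 82.8, 111 and 110 in Foxl2 KO, 119, 57.7, 109 and 173 in Runx1 KO, and 287, 367, 206 and 289 in control. The dimmest gave 35.3, 17.4, 37.7 and 35.8 in DKO, 4.4, 38.2, 31.1 and 51.6 in Foxl2 KO, 144, 32.5, 58.1 and 60.1 in Runx1 KO, and 441, 611, 400 and 510 in control. On both, as on the brightest, no knockout ovary reached the lowest control ovary. In a fit over all 34945 probe sets with 1 gene, the dimmest fell in DKO (log2 -3.42 ± 0.36, limma adjusted p = 5.97e-05), Foxl2 KO (log2 -3.53 ± 0.36, adjusted p = 6.17e-05) and Runx1 KO (log2 -2.62 ± 0.36, adjusted p = 0.00601). The second fell in DKO (log2 -1.85 ± 0.26, adjusted p = 0.000965) and in Foxl2 KO (log2 -1.46 ± 0.26, adjusted p = 0.00947), while its difference in Runx1 KO was not called (log2 -1.26 ± 0.26, adjusted p = 0.13). The probe sets thus gave the same direction and different sizes, with the second probe set giving the smallest difference of the 3 in each comparison with control.

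**Figure D1:**
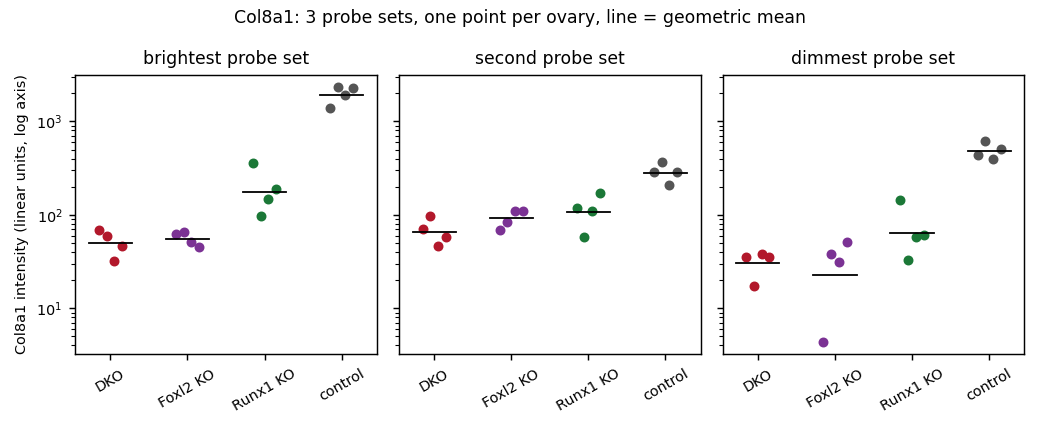
Intensity of the 3 Col8a1 probe sets (linear units on a log axis) in each ovary, 4 per genotype, with a line at the geometric mean. On all 3 probe sets the 4 control ovaries lie above every knockout ovary, and on the brightest the Runx1 KO ovaries (97.8 to 360) lie between the control ovaries and the other knockout groups.

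The design asked next what the loss of both factors did beyond the loss of one. Between DKO and Foxl2 KO the Col8a1 difference was log2 -0.11 ± 0.29 (limma adjusted p = 1), with an interval at 95% confidence that ran from -0.74 to 0.51, and no collagen chain was called (0 of 33, against 0.0605% of all genes). By the ordinary analysis of variance 0 were called too, and at an unadjusted limma p under 0.05 the count was 5 of 33, against 5.38% of all genes, namely Col2a1, Col4a3, Col4a4, Col7a1 and Col11a1. Between DKO and Runx1 KO, Col8a1 was 2.94-fold lower in DKO (log2 -1.56 ± 0.29, adjusted p = 0.0165) and was the 1 member called of 33, against 0.989% of all genes. Without DKO replicate 3 or DKO replicate 4 this last call was lost (adjusted p = 0.0638 and 0.0511). The second and the dimmest Col8a1 probe sets gave smaller DKO minus Runx1 KO differences that were not called, log2 -0.59 ± 0.26 and -0.80 ± 0.36 (adjusted p = 0.565 and 0.569 over all probe sets). At an unadjusted limma p under 0.05 this comparison held 5 of 33 chains, against 9.43% of all genes, namely Col6a1, Col6a2, Col8a1, Col11a1 and Col12a1.

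The interaction term asks whether Runx1 loss acted on a gene differently in ovaries without Foxl2 (DKO minus Foxl2 KO) than in ovaries with it (Runx1 KO minus control). It was log2 3.21 ± 0.42 for Col8a1 (limma adjusted p = 0.0212), and Col8a1 was the 1 member called, against 0.0110% of all genes, while 2 of 33 had an unadjusted limma p under 0.05 (Col4a3 and Col8a1), against 5.33% of all genes. On the second and the dimmest probe sets the term was log2 0.88 ± 0.37 and 2.73 ± 0.51 and was not called (adjusted p = 0.987 and 0.213 over all probe sets). On the brightest the DKO level was higher than the sum of the single-loss differences gives. That sum was -8.09, which from the control mean of 10.93 would lead to a level of 2.84, and the scale cannot read below 4. The mean levels of 6.05 for DKO, 6.16 for Foxl2 KO and 7.61 for Runx1 KO lay inside the range of the 9 Y-linked genes on the array, which XX ovaries lack and which read 4.51 to 8.3 with a median of 5.34. Sry alone gave the top of that range and the next highest was Orly at 6.43, below the Runx1 KO level. Leaving out 1 ovary lost this call for 7 of the 16 ovaries, with adjusted p of up to 0.0831, the highest without control replicate 4.

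Markers of the supporting cells were read beside Col8a1. Of 10 pre-granulosa markers, all measured and with Foxl2 and Runx1 among them, the number that fell against control was 5 for DKO, 4 for Foxl2 KO and 0 for Runx1 KO. In Runx1 KO the ordinary analysis of variance called 0 too, and 3 had an unadjusted limma p under 0.05, against 7.34% of all genes. Among the 8 markers other than the targeted Foxl2 and Runx1, 4 fell for DKO, 3 for Foxl2 KO and 0 for Runx1 KO. Of 8 Sertoli markers, the supporting cells of the testis, the number that rose was 5 for DKO, 5 for Foxl2 KO and 1, Fgf9, for Runx1 KO. That Fgf9 rise was log2 0.98 ± 0.17 (limma adjusted p = 0.0438), close to the threshold. The study, by its own threshold and quantitative PCR, reported Fgf9 as significantly raised in DKO only. Of all genes, 2.13% were called in either direction for DKO, 1.52% for Foxl2 KO and 0.121% for Runx1 KO. The pre-granulosa list had a mean deviation from each gene's 16-array mean of -0.45 to -0.38 in the DKO ovaries, -0.44 to -0.14 in Foxl2 KO, 0.03 to 0.38 in Runx1 KO and 0.20 to 0.68 in control on the log2 scale. Without the targeted genes Foxl2 and Runx1, the other 8 lay at -0.45 to -0.32 in DKO, -0.37 to -0.14 in Foxl2 KO, 0.01 to 0.36 in Runx1 KO and 0.13 to 0.65 in control, so Runx1 KO overlapped control with or without them. The Sertoli list ran from 0.40 to 0.64 in DKO, 0.20 to 0.77 in Foxl2 KO, -0.47 to -0.09 in Runx1 KO and -0.96 to -0.56 in control. None of the 8 Sertoli genes or 10 pre-granulosa genes read at the scale's minimum of 4 on average, and the lowest were at 5.03 and 6.24. The lowest Sertoli gene was thus below the Y-linked median of 5.34, and the lowest pre-granulosa gene was inside the Y-linked range. The part of these cell markers in the Col8a1 differences was not tested. Foxl2 itself, read as a check of the labels, was at 570 to 839 in DKO, 484 to 890 in Foxl2 KO, 2641 to 3585 in Runx1 KO and 2774 to 4241 in control. Runx1 read 2111 to 2370 in DKO, 2356 to 3054 in Foxl2 KO, 932 to 2127 in Runx1 KO and 2142 to 2359 in control and was not called in any comparison, and the position of its probes relative to the floxed part was not looked up.

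The start of Col8a1 is shown with that of Col8a2, its partner chain, because these data set the pair apart. RefSeq gives the window from 250 bases before to 50 bases after the transcription start on GRCm38.p6, at chr16:57754688-57754987 on the minus strand for Col8a1 and chr4:126286544-126286843 on the plus strand for Col8a2. Capitals mark TGTGGT, the core that RUNX factors bind, and TATTTAC, a variant of the forkhead core TGTTTAC chosen after the sequence had been read.
Col8a1: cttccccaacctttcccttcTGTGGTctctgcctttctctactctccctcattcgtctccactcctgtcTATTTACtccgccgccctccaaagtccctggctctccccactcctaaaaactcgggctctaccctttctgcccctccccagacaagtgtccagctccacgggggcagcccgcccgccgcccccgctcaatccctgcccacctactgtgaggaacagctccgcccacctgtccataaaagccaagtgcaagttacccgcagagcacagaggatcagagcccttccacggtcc
Col8a2: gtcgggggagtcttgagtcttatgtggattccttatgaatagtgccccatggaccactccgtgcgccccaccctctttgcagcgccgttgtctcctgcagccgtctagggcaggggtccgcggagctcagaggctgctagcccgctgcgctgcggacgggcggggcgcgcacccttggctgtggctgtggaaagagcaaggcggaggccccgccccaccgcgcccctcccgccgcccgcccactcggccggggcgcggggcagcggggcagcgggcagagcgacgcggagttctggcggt
In Col8a1 the TGTGGT lies at -230 to -225 and the TATTTAC at -181 to -175 from the start. Col8a2 holds none of the 3 motifs on either strand. Both strands were searched in 32851 promoter windows of the same length, of which 16.8% held TGTGGT, 3.65% TGTTTAC and 3.04% TATTTAC. Of the 33 collagen chains 26 had a window, and TGTGGT was found in Col8a1 and Col18a1, TGTTTAC in Col6a1 and TATTTAC in Col8a1. The letters describe these windows only and do not show that a factor binds there.

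Col8a2, the alpha 2 chain that can assemble with Col8a1 or on its own, did not follow it. It read 1315, 1074, 1230 and 800 in DKO, 1136, 1317, 1247 and 1130 in Foxl2 KO, 818, 795, 905 and 875 in Runx1 KO, and 587, 1047, 1094 and 814 in control. All 4 Foxl2 KO ovaries lay above all 4 control ovaries, and the DKO and Runx1 KO ovaries overlapped the controls. Its log2 difference from control was 0.33 ± 0.19 for DKO (limma adjusted p = 0.52), 0.48 ± 0.19 for Foxl2 KO (adjusted p = 0.327) and -0.02 ± 0.19 for Runx1 KO (adjusted p = 0.988). The intervals at 95% confidence, -0.07 to 0.73 in DKO, 0.08 to 0.87 in Foxl2 KO and -0.42 to 0.37 in Runx1 KO, held no fall as deep as 1.5-fold.

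Col4a1 and Col4a2, the chains of the type IV network found in nearly all basement membranes, stayed close to control. Col4a1 read 6020, 5888, 5826 and 8219 in DKO, 6867, 6584, 6638 and 7362 in Foxl2 KO, 6435, 6483, 6513 and 6688 in Runx1 KO, and 6140, 6326, 7249 and 5669 in control. Its log2 difference from control was 0.02 ± 0.13 for DKO, 0.12 ± 0.13 for Foxl2 KO and 0.05 ± 0.13 for Runx1 KO, and the intervals at 95% confidence lay between -0.24 and 0.38. Each knockout group overlapped the control group. DKO replicate 4 stood above every other ovary, and the other DKO ovaries lay below every Foxl2 KO and Runx1 KO ovary. Col4a2 read 1905, 2156, 2521 and 2539 in DKO, 1788, 2580, 1901 and 2042 in Foxl2 KO, 2539, 2095, 2247 and 1869 in Runx1 KO, and 2371, 2709, 2658 and 2186 in control, with log2 differences of -0.13, -0.26 and -0.18 ± 0.15 for DKO, Foxl2 KO and Runx1 KO against control. Col4a5 (group means 2280 to 2386) and Col4a6 (367.7 to 414.9), neighbours on the X chromosome that form a second kind of basement membrane network, differed from control by at most 0.18 on the log2 scale.

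Col4a3 and Col4a4, which lie head to head in the genome and supply the mature type IV network of the glomerulus with Col4a5, read highest in Foxl2 KO. Col4a3 gave 91.6, 173, 207 and 73.5 in DKO, 149, 240, 235 and 342 in Foxl2 KO, 108, 178, 135 and 187 in Runx1 KO, and 140, 128, 98.6 and 73.4 in control. Col4a4 gave 294, 236, 349 and 251 in DKO, 362, 333, 388 and 578 in Foxl2 KO, 268, 169, 284 and 401 in Runx1 KO, and 303, 235, 225 and 276 in control. For both, the Foxl2 KO ovaries did not overlap the controls on the probe set used, and neither was called. On a second Col4a3 probe set the groups overlapped, with a Foxl2 KO minus control difference of log2 0.43 ± 0.20. The other Col4a4 probe sets gave log2 0.69 ± 0.22 and 0.87 ± 0.29, and the groups overlapped on the dimmest. The Foxl2 KO minus control difference was log2 1.01 ± 0.30 for Col4a3 (limma adjusted p = 0.15) and 0.62 ± 0.23 for Col4a4 (adjusted p = 0.275), and DKO minus control was 0.20 ± 0.30 and 0.11 ± 0.23. The 5 measured markers of mesonephric duct and kidney had a mean deviation of 0.12 to 0.49 in DKO, 0.07 to 0.26 in Foxl2 KO, -0.21 to 0.33 in Runx1 KO and -0.88 to -0.39 in control. Among those markers Pax8, a factor of the renal tubule and duct, rose in DKO (log2 2.23 ± 0.35, limma adjusted p = 0.00213) and in Foxl2 KO (log2 1.74 ± 0.35, adjusted p = 0.0184), and its part in the Col4a3 and Col4a4 levels was not tested.

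The chains of the major interstitial fibrils were not called in any comparison. Col1a1, which with Col1a2 makes type I collagen, read 10260, 9192, 6541 and 10601 in DKO, 6284, 7656, 8977 and 8595 in Foxl2 KO, 8338, 6317, 9047 and 8056 in Runx1 KO, and 6243, 7773, 7827 and 7377 in control. Col1a2 read 13562, 13033, 8548 and 16215 in DKO, 9812, 10033, 11803 and 12564 in Foxl2 KO, 11051, 9989, 12217 and 12322 in Runx1 KO, and 10062, 9452, 12136 and 8397 in control. Col3a1, the chain of type III collagen, read 14644, 12707, 9790 and 16181 in DKO, 12149, 10819, 12206 and 12161 in Foxl2 KO, 12432, 11620, 12197 and 12382 in Runx1 KO, and 9527, 10250, 13416 and 10388 in control. In all 3 genes every knockout group overlapped the control group, and DKO replicate 3 was the lowest of the DKO ovaries. Their log2 differences in DKO were 0.31 ± 0.17 for Col1a1, 0.33 ± 0.18 for Col1a2 and 0.28 ± 0.15 for Col3a1 (limma adjusted p = 0.518, 0.49 and 0.493). In Foxl2 KO and Runx1 KO they ran from 0.10 to 0.19 over the 3 genes. The DKO intervals at 95% confidence lay between -0.06 and 0.71.

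Of the other fibrillar chains, Col11a1, a minor chain that sits within fibrils and helps to set their width, had the smallest p in Foxl2 KO and in Runx1 KO against control. It read 279, 212, 222 and 247 in DKO, 153, 198, 201 and 141 in Foxl2 KO, 416, 366, 571 and 300 in Runx1 KO, and 229, 324, 308 and 201 in control. All 4 DKO ovaries lay below the lowest Runx1 KO ovary and above the highest Foxl2 KO ovary, and they overlapped the controls. Against control the log2 difference was -0.12 ± 0.20 for DKO (limma adjusted p = 0.871), -0.56 ± 0.20 for Foxl2 KO (adjusted p = 0.251) and 0.60 ± 0.20 for Runx1 KO (adjusted p = 0.486), and DKO minus Runx1 KO was -0.72 ± 0.20 (adjusted p = 0.125). None of these was called. A second Col11a1 probe set gave -0.91 ± 0.22 for DKO minus Runx1 KO (adjusted p = 0.0812 over all probe sets), and -0.39 and 0.77 ± 0.22 for Foxl2 KO and Runx1 KO against control.

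The remaining fibrillar members were Col5a1 (group means 2527 to 2833), Col5a2 (2479 to 2649), Col5a3 (76.23 to 126.8), Col2a1 (69.59 to 106.3), Col11a2 (18.53 to 26.11) and Col27a1 (676.3 to 979.4). Types V and XI start fibril assembly, type II is the fibril of cartilage, and none of these 6 genes was called in any comparison. Col5a3 had the smallest p of the fibrillar chains in DKO minus control (log2 0.59 ± 0.26, limma adjusted p = 0.356). Col27a1 read 675, 657, 810 and 564 in DKO, 351, 951, 932 and 679 in Foxl2 KO, 1178, 493, 704 and 1056 in Runx1 KO, and 900, 1216, 966 and 836 in control. Every DKO ovary was below every control ovary, with a log2 difference of -0.52 ± 0.30 (adjusted p = 0.529). On a second Col27a1 probe set these groups overlapped, with a log2 difference of -0.31 ± 0.24. Col11a2 averaged below the median of the Y-linked genes, the 1 member to do so, and the 6 cartilage markers averaged between 4.49 and 7.98 on the log2 scale with none called.

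Col12a1, a fibril-associated chain that links fibrils to their surroundings, came nearest to the threshold after Col8a1. It read 701, 489, 487 and 677 in DKO, 457, 650, 850 and 651 in Foxl2 KO, 763, 623, 886 and 1007 in Runx1 KO, and 794, 1143, 1231 and 985 in control. All 4 DKO ovaries lay below all 4 control ovaries, while Foxl2 KO and Runx1 KO each overlapped control. The log2 difference from control was -0.80 ± 0.21 for DKO (limma adjusted p = 0.0622), -0.67 ± 0.21 for Foxl2 KO (adjusted p = 0.172) and -0.34 ± 0.21 for Runx1 KO (adjusted p = 0.757). The DKO difference passed the threshold without control replicate 1 (log2 -0.92, adjusted p = 0.0465) and without Foxl2 KO replicate 1 (log2 -0.80, adjusted p = 0.0426). Col12a1 has 4 probe sets, and the 3 dimmer ones gave -0.05, -0.16 and -0.19 for DKO minus control.

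Type IX chains attach to the surface of cartilage fibrils, and Col9a1 (16.37 to 34.8) and Col9a2 (39.45 to 87.74) were dim in these ovaries, while Col9a3 (529.8 to 955.4) was not. Col9a2 had the smallest p of the fibril-associated group in Runx1 KO minus control (log2 -1.02 ± 0.34, limma adjusted p = 0.49), where its 4 ovaries read 55.8, 26.6, 65.5 and 9.9, against 107, 84.1, 99.3 and 60.8 in control. The ranges met, since Runx1 KO replicate 3 lay above control replicate 4. Col14a1 (282.2 to 458.7) and Col16a1 (328.1 to 447.7), which bind to fibrils, were not called either, and Col14a1 spread widely within a genotype, at 206 to 685 among the Runx1 KO ovaries and 171 to 554 among the controls.

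Type VI collagen forms beaded filaments around cells from Col6a1, Col6a2 and Col6a3. Col6a1 read 4858, 5102, 4460 and 5053 in DKO, 4569, 4623, 5094 and 5173 in Foxl2 KO, 3751, 2303, 3721 and 3917 in Runx1 KO, and 3297, 3922, 4664 and 3846 in control. Col6a2 read 6454, 6174, 4987 and 6787 in DKO, 4309, 5477, 5506 and 6070 in Foxl2 KO, 4228, 3213, 5249 and 3858 in Runx1 KO, and 3716, 4610, 5556 and 4453 in control. For Col6a1 the DKO ovaries were all above the Runx1 KO ovaries, and for both genes DKO overlapped control. DKO minus Runx1 KO was log2 0.54 ± 0.16 for Col6a1 and 0.57 ± 0.17 for Col6a2, each with a limma adjusted p of 0.171, and DKO minus control was 0.32 ± 0.16 and 0.42 ± 0.17 (adjusted p = 0.453 and 0.314). Without Runx1 KO replicate 2, the lowest ovary of its group in both genes, DKO minus Runx1 KO came to 0.36 ± 0.13 for Col6a1 (adjusted p = 0.373) and 0.46 ± 0.17 for Col6a2 (adjusted p = 0.421). Col6a3 (1726 to 1900) had log2 differences from control of -0.10 to 0.08, and Col7a1 (97.59 to 140.8), the chain of the anchoring fibrils under epithelia, was lower in every DKO ovary than in every Foxl2 KO ovary with a log2 difference of -0.46 ± 0.17 (adjusted p = 0.759).

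Col15a1 (500.6 to 606.7) and Col18a1 (1301 to 1711), the multiplexins of vascular and epithelial basement membranes, were not called. Col18a1 was lower in every DKO ovary (1282, 1290, 1462 and 1169) than in every Runx1 KO ovary (1688, 1667, 1479 and 1592), with a log2 difference of -0.30 ± 0.18 (limma adjusted p = 0.668). On a second Col18a1 probe set these groups overlapped, with a log2 difference of -0.10 ± 0.22. Among the transmembrane chains Col13a1 (125.7 to 163), Col23a1 (141.7 to 170.9) and Col25a1 (569.5 to 761.1), the smallest p against control was that of Col25a1, which is needed for motor axons to enter muscle. Col25a1 read 652, 996, 634 and 705 in DKO, 591, 764, 649 and 633 in Foxl2 KO, 765, 692, 792 and 795 in Runx1 KO, and 493, 683, 596 and 506 in control. Every Runx1 KO ovary was above every control ovary, with a log2 difference of 0.42 ± 0.15 (adjusted p = 0.552), and DKO minus control was 0.37 ± 0.15 (adjusted p = 0.316). On a second Col25a1 probe set Runx1 KO overlapped control, with a log2 difference of 0.18 ± 0.30.

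**Figure D2:**
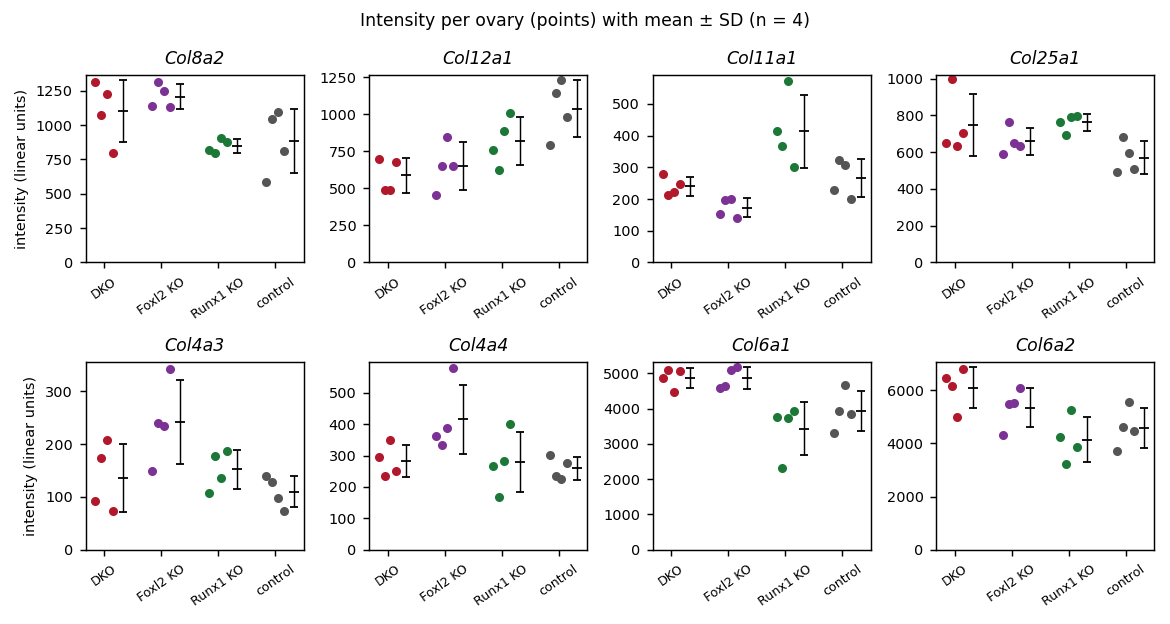
Intensity (linear units) of 8 collagen chain genes in each ovary, with the mean and SD of the 4 ovaries of a genotype beside the points. The Foxl2 KO ovaries of Col8a2, Col4a3 and Col4a4 lie above the controls, the DKO ovaries of Col12a1 lie below them, and for Col11a1 the DKO ovaries lie between the Foxl2 KO and Runx1 KO ovaries.

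As a family the 33 chains showed no common direction. Their median log2 difference was 0.05 in DKO minus control (21 above 0 and 12 below), 0.12 in Foxl2 KO minus control (21 and 12) and 0.00 in Runx1 KO minus control (17 and 16), beside medians over all genes of 0.04, 0.05 and 0.04. Apart from Col8a1 the differences ran from -0.80 (Col12a1) to 0.59 (Col5a3) in DKO, from -0.67 (Col12a1) to 1.01 (Col4a3) in Foxl2 KO and from -1.02 (Col9a2) to 0.70 (Col9a3) in Runx1 KO. The median standard error of a member was 0.22, so changes of that size in a single chain were too small to be detected with 4 ovaries per genotype. At an unadjusted limma p under 0.05 there were 5 members in DKO minus control, 7 in Foxl2 KO minus control and 4 in Runx1 KO minus control, against 12.4%, 11.0% and 7.34% of all genes. Counted as groups that do not overlap, 3 members lay lower in DKO (2.71% of all genes) and 0 higher (4.90%), 1 lower in Foxl2 KO (2.23%) and 3 higher (4.49%), and 1 lower (1.44%) and 1 higher (2.53%) in Runx1 KO, each against control. In DKO minus Foxl2 KO there were 2 lower (1.79%) and 1 higher (1.78%), and in DKO minus Runx1 KO 3 lower (2.71%) and 1 higher (3.22%).

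**Figure D3:**
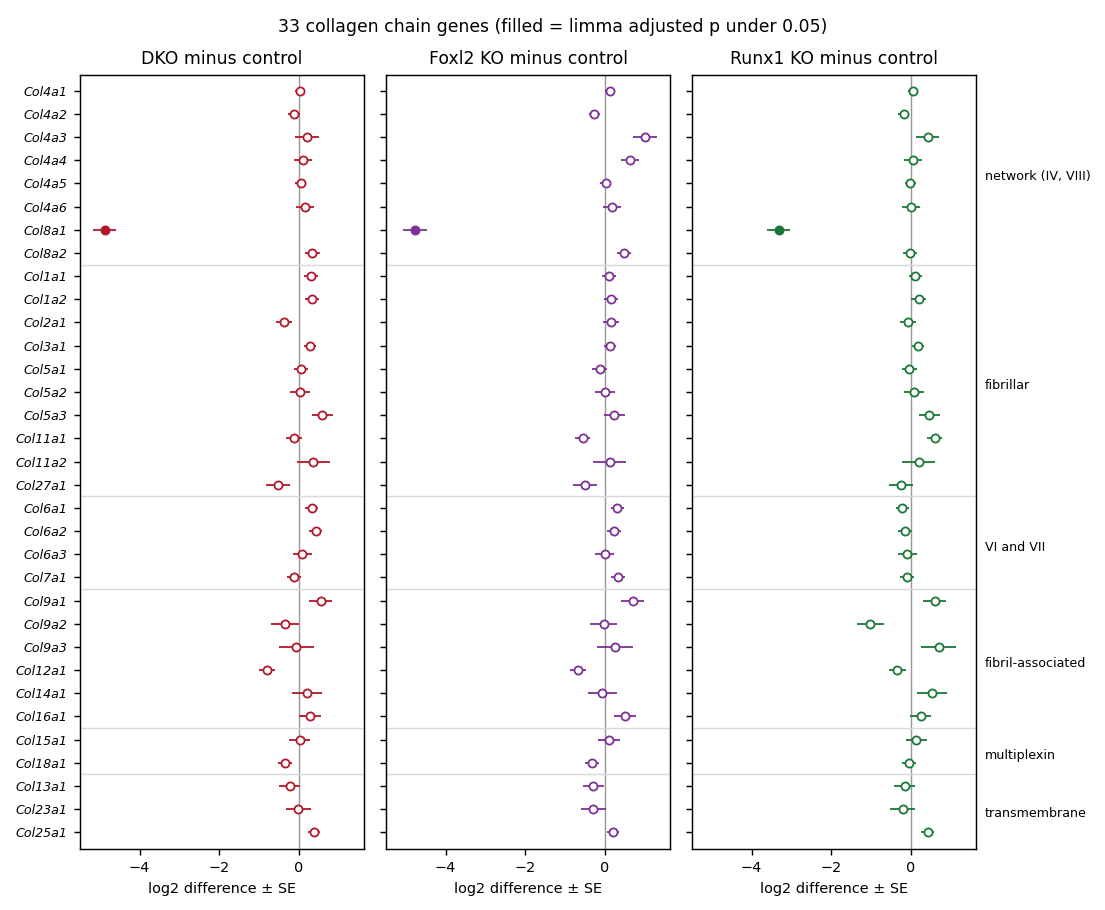
Log2 difference from control ± SE for each of the 33 collagen chain genes in DKO, Foxl2 KO and Runx1 KO ovaries (n = 4 per group), grouped by collagen type, with filled points for a limma adjusted p under 0.05. Col8a1 is the only filled point, at -4.88, -4.76 and -3.32, and all other chains lie between -1.02 and 1.01.

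The spread between ovaries of a genotype was partly shared across the family. Runx1 KO replicate 2 was the lowest of its group in 22 of the 33 chains, against 31.2% of all genes, and averaged -0.27 on the log2 scale over the 32 chains other than Col8a1. The same ovary had the lowest deviation of all 16 over the 6 stromal markers, -0.43, where the other Runx1 KO ovaries were at 0.06 to 0.14. Without it the median of the 33 chains was 0.13 in Runx1 KO minus control (24 above 0) and -0.09 in DKO minus Runx1 KO (10 above 0), each with Col8a1 as the 1 member called. Control replicate 1 was the lowest of its group in 18 chains (24.5% of all genes) and Foxl2 KO replicate 1 in 17 (31.4%). Control replicate 4 had an erythroid deviation of 2.75, where every other ovary was at most 0.26. Its removal left Col8a1 at log2 -4.80 for DKO (adjusted p = 1.89e-06), -4.69 for Foxl2 KO (adjusted p = 1.73e-06) and -3.24 for Runx1 KO (adjusted p = 0.000652).

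**Figure D4:**
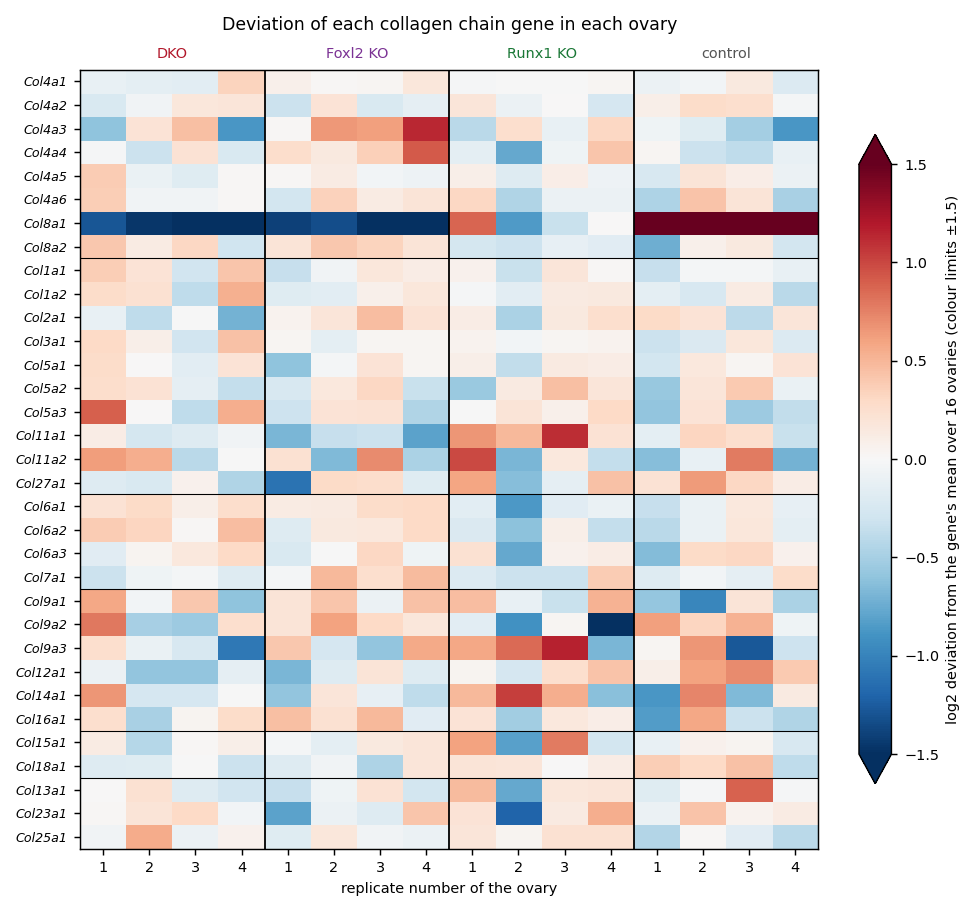
Deviation of each of the 33 collagen chain genes in each of the 16 ovaries from the mean of that gene over all ovaries (log2 scale, colours capped at 1.5 in either direction), ordered by collagen type and genotype. The Col8a1 row separates the control ovaries from the DKO and Foxl2 KO ovaries, and the column of Runx1 KO replicate 2 is low in most rows.

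Because DKO and Foxl2 KO both lack Foxl2, and DKO and Runx1 KO both lack Runx1, average effects of each loss over the 16 ovaries were also taken from the same fit, a contrast chosen after the values had been seen. For Foxl2 loss 3 of 33 chains were called, against 3.14% of all genes. They were Col8a1 (log2 -3.16 ± 0.21, limma adjusted p = 2.37e-07), Col11a1 (log2 -0.64 ± 0.14, adjusted p = 0.0167) and Col12a1 (log2 -0.57 ± 0.15, adjusted p = 0.0472), all of which fell. The Col11a1 call was kept in all 16 fits that left out 1 ovary (adjusted p of 0.0406 or less), whereas the Col12a1 call was lost in 12 of them (adjusted p up to 0.0962). For Runx1 loss 1 of 33 was called, against 0.280% of all genes. It was Col8a1, at log2 -1.72 ± 0.21 (adjusted p = 0.000926), while Col11a1 was at 0.52 ± 0.14 (adjusted p = 0.241). For Col8a1 both averages join unlike differences and describe neither background. Its difference for Runx1 loss was log2 -3.32 in ovaries with Foxl2 and -0.11 in ovaries without it. For Foxl2 loss it was log2 -4.76 in ovaries with Runx1 and -1.56 in Runx1 KO ovaries.

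Genes that make, trim, bind and break down collagen were read beside the chains. Among 18 of 19 measured enzymes and chaperones of the endoplasmic reticulum, Colgalt2, which adds galactose to hydroxylysine of collagen, fell in DKO. It read 41.7, 85.4, 70.7 and 35.4 in DKO, 93.7, 79.8, 115 and 63.7 in Foxl2 KO, 156, 139, 179 and 197 in Runx1 KO, and 130, 166, 114 and 194 in control, so no DKO ovary reached a control or Runx1 KO ovary. The differences were log2 -1.20 ± 0.23 for DKO minus control (limma adjusted p = 0.00827) and -1.35 ± 0.23 for DKO minus Runx1 KO (adjusted p = 0.00708), and the first was lost in a fit of only the groups compared (adjusted p = 0.0552). P4ha3, an alpha subunit of prolyl 4-hydroxylase, the enzyme that stabilises the triple helix, read 306, 350, 298 and 417 in DKO, 256, 250, 290 and 460 in Foxl2 KO, 783, 623, 674 and 691 in Runx1 KO, and 519, 587, 667 and 469 in control. The P4ha3 level was below every control ovary in all ovaries without Foxl2. It fell in Foxl2 KO minus control (log2 -0.84 ± 0.18, adjusted p = 0.0294) and in DKO minus Runx1 KO (log2 -0.99 ± 0.18, adjusted p = 0.0133), and DKO minus control was -0.68 ± 0.18 (adjusted p = 0.0692). The Foxl2 KO call of P4ha3 was lost in 6 of 16 fits without 1 ovary, those without Foxl2 KO or control replicates 1, 2 and 3, with adjusted p up to 0.103, and in 3 of 13 other alternatives, the replicate block, only the groups compared and the ordinary analysis of variance (up to 0.134). Its DKO minus Runx1 KO call was lost without DKO replicate 3 or Runx1 KO replicate 1 (up to 0.0542).

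Of the 9 collagen-binding matrix proteins, all measured, 1 rose in Foxl2 KO and 1 in DKO. Prelp, a leucine-rich proteoglycan of basement membranes, read 273, 284, 363 and 404 in DKO, 842, 597, 473 and 842 in Foxl2 KO, 238, 162, 276 and 200 in Runx1 KO, and 306, 278, 231 and 172 in control. It rose in Foxl2 KO (log2 1.41 ± 0.22, limma adjusted p = 0.0032), where every ovary lay above every control, and DKO minus control was 0.41 ± 0.22 (adjusted p = 0.5). Fmod, fibromodulin, which binds type I fibrils, read 565, 623, 596 and 469 in DKO, 493, 396, 632 and 535 in Foxl2 KO, 361, 511, 514 and 292 in Runx1 KO, and 286, 232, 453 and 213 in control. Its DKO ovaries lay above the controls, and its rise in DKO (log2 0.94 ± 0.23, adjusted p = 0.0451) was lost in 11 of 16 fits without 1 ovary and in 7 of 13 other alternatives (adjusted p up to 0.131 and 0.626).

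No gene of the other collagen lists was called by limma in any of the 6 comparisons. Of their 36 measured genes, 4 had an unadjusted limma p under 0.05 in DKO minus control, against 12.4% of all genes. In Foxl2 KO minus control 3 did (11.0% of all genes) and in Runx1 KO minus control 0 did (7.34%). By an ordinary analysis of variance after adjustment 0 were called. The 36 included 9 of 12 genes of propeptide processing and cross-linking. Among these 9, Pcolce, an enhancer of procollagen trimming, had the smallest p in DKO minus control (log2 0.35 ± 0.13, limma adjusted p = 0.26). A further 8 of 9 were collagen receptors, with Lair1, an inhibitory receptor of immune cells, the smallest (log2 -0.58 ± 0.24, adjusted p = 0.314), and 10 of 10 genes of collagen breakdown and its inhibitors, with Mmp14, a membrane-bound collagenase, the smallest (log2 -0.45 ± 0.21, adjusted p = 0.384). Of 11 collagen chains outside the family of 33, 9 were measured, and the smallest p was that of Col6a5 in Foxl2 KO minus control (log2 -1.91 ± 0.50, adjusted p = 0.0767). Mfap5, a microfibril protein of fibroblasts, was the 1 of 6 stromal markers called and fell in DKO (log2 -1.51 ± 0.25, adjusted p = 0.00301). None of the 36 endothelial, smooth muscle, macrophage, oocyte or surface epithelial markers was called by limma or by the ordinary analysis of variance. At an unadjusted limma p under 0.05 there were 4 of them in DKO minus control, against 12.4% of all genes. Alpl, the 1 bone marker called of 5 measured, rose in DKO (log2 0.77 ± 0.19, adjusted p = 0.0495), close to the threshold. The calls of Alpl, Mfap5, Pax8 and the Sertoli markers were not tested under the alternative settings or with ovaries left out. Those of the pre-granulosa markers were repeated only by the ordinary analysis of variance.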

How the data were processed

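RNA of 16 single newborn ovaries, 4 per genotype, was amplified and hybridised by the authors to 1 Affymetrix array each. The deposited values are linear intensities per probe set, made by the authors with Affymetrix Expression Console 1.2 per the submitters' notes; the summarisation algorithm is not given in the sources used here. Every array had a mean of 500 after trimming 2% at each end, and array medians ran from 134.3 to 177.5. Of all probe sets 11.2% to 15.6% per array read below 16. The study's methods name log2 values of another summarisation, whereas the deposited column is linear, so 16 was added to each intensity before log2 was taken. Fold changes on this scale understate the change of dim genes. No value column was without a sample (0 unused).

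Of 45101 probe sets, 64 were controls, 34945 matched 1 gene by the platform annotation, 932 several and 9160 none. The brightest probe set stood for each of 18193 genes (9010 with several). Of the 33 members 22 had several probe sets, 64 in all. All arrays entered 1 model of the 4 genotype means, fitted with limma 3.58.1 in R 4.3.3 (lmFit and eBayes, 12 residual and 3.32 prior degrees of freedom), with 6 contrasts, two-sided tests and Benjamini-Hochberg adjustment over all genes within a contrast. The method was tested on simulated data. Errors are moderated standard errors, and intervals use 15.3 degrees of freedom. A list deviation averages, over the genes of the list, how far an array lies from a gene's 16-array mean.

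The members, related lists and marker lists were chosen with earlier results of these data known. Every member was accounted for by collagen type. Values in every ovary were given for called members, Col8a1 with all probe sets, Col8a2 and the major chains of types I, III and IV. Further chains were picked for this after their values were seen, among them chains whose groups did not overlap. Col2a1 and Col7a1, lower in every DKO ovary than in every Foxl2 KO ovary, were not shown in this way. From related lists the called genes were named, or the one with the smallest p in a comparison with control. The labels' replicate numbers were not taken as pairs, since among 24 same-numbered pairs across genotypes the residual correlation was above 0.1 in 1 and its median was -0.03. Alternatives were other scalings, offsets, probe set rules, filters and variance models, a replicate block, the study's unadjusted analysis of variance at p under 0.05 with a 1.5-fold minimum, and each ovary left out in turn. No scan date or batch was used. Promoter windows came from RefSeq on GRCm38.p6.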

Additional observations from a re-analysis of the deposited data

Results flagged for a closer look

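In 10 of the 132 sets of 4 ovaries (33 chains in 4 genotypes, 7.58%), 1 ovary stood apart by Dixon's ratio, which chance exceeds in about 1 of 20 sets. Runx1 KO replicate 2 accounted for 4 of them and was low each time. It read 2050 for Col5a1 (the other Runx1 KO ovaries 2824 to 2916), 2303 for Col6a1 (3721 to 3917), 1035 for Col6a3 (1857 to 2082) and 252.1 for Col16a1 (394.8 to 425.9). Runx1 KO replicate 4 was high for Col7a1 at 148.3 (84.54 to 93.04). In DKO, replicate 4 was high for Col4a1 at 8219 (5826 to 6020) and replicate 1 was high for Col4a6 at 501.2 (367.5 to 386.4). Foxl2 KO replicate 2 was low for Col3a1 at 10820, beside a narrow 12150 to 12210. Control replicate 3 was low for Col2a1 at 62.76 (101.5 to 110.4) and high for Col13a1 at 264.6 (118.6 to 134.8). None of these 10 genes was called in any of the 6 contrasts. The Runx1 effect on Col8a1 differed between ovaries with and without Foxl2, by log2 3.208 (limma adjusted p = 0.0212), and the level of 2.84 that the sum of the single losses gives lay below 4, the lowest the scale can read.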

How the results depend on the processing

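The Col8a1 falls in DKO, Foxl2 KO and Runx1 KO against control kept their direction and call in all alternatives that tested the gene, each ovary left out included, with log2 values of -5.28 to -3.38, -5.12 to -3.25 and -3.64 to -2.40 (adjusted p up to 5.22e-05, 1.51e-05 and 0.0172). A filter on genes above the median level removed Col8a1, leaving 0 members called in Foxl2 KO and Runx1 KO against control, in DKO minus Runx1 KO and in the interaction, and Col12a1 as the 1 in DKO minus control. There 2 members (Col8a1 and Col12a1) were called with equal array medians, an offset of 50, array weights, a trended robust prior and the study's threshold. That threshold also gave 5 members in Foxl2 KO minus control, 3 in Runx1 KO minus control, 1 in DKO minus Foxl2 KO, 2 in DKO minus Runx1 KO and 2 in the interaction. The share of all genes that passes the study's threshold was not taken, so these counts have no share to be judged against. At an unadjusted limma p under 0.05 alone, 5.33% (interaction) to 12.4% (DKO minus control) of all genes passed. DKO minus Runx1 KO had 2 (Col8a1 and Col11a1) with array weights, and 0 with the mean of all probe sets or only the groups compared. The interaction had 0 with a floor of 16, the ordinary analysis of variance after adjustment or the replicate block, and the fit of only the groups compared gives none. The cause of these changes was not tested.

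Leaving out each of the 16 ovaries gave 1 to 2 members called in DKO minus control, 1 to 1 in Foxl2 KO minus control, 1 to 1 in Runx1 KO minus control, 0 to 0 in DKO minus Foxl2 KO, 0 to 1 in DKO minus Runx1 KO and 0 to 1 in the interaction. The last lost Col8a1 without DKO replicate 2 or 4, Foxl2 KO replicate 1, 3 or 4, Runx1 KO replicate 4 or control replicate 4. With the replicate number as a block the Col8a1 interaction had an adjusted p of 0.111 and 0 members were called, and the block changed no other count of members. Samples share only a number, so this pairing is not part of the design.

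Precision is limited by the 4 ovaries per genotype, and the Col8a1 levels in all 3 knockout groups lay within the range of Y-linked genes. For Runx1 KO this rests on Sry alone, since its level was above that of every other Y-linked gene.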
